A study of Mus musculus with 5 samples.

Results

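The 9 genes described here encode proteins that bind messenger RNA (mRNA), mostly in the 3′ untranslated region (3′ UTR), and that have been studied as regulators of hematopoietic stem cells (HSCs) or of mRNA decay in blood cells. They are Msi2, Igf2bp2, Elavl1, Pum2, Ythdf2, Zfp36l1, Zfp36l2, Fxr1 and Fmr1. They were taken by name from the 24046 genes of the table, and all 9 passed the filter on low values and were among the 13661 genes tested.

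Bulk RNA sequencing was used to ask how HSCs change when Syncrip, the gene of another RNA-binding protein, is deleted. All mice carried marrow of donors homozygous for Syncrip flox/flox, in which exons 3 and 4 are flanked by loxP sites. The WT group was Mx1 Cre- (3 libraries, WT 1, WT 2 and WT 3) and the KO group was Mx1 Cre+ (2 libraries, KO 2 and KO 3). Donors were 6 to 8 weeks old when their marrow was moved into irradiated CD45.1 recipients. Polyinosinic:polycytidylic acid (pIpC), which induces interferon, was given to both groups 6 weeks after transplantation, on 2 days at 10 mg/kg, and 3 weeks later the CD45.2+ donor cells that were Lin-, Sca1+, cKit+, CD150+ and CD48- were sorted. Mx1-Cre is switched on by interferon in many cell types, so deletion was not limited to HSCs, and the WT group received pIpC but held no Cre. Whether each library came from 1 recipient or from pooled recipients was not given in the sources used here, and p-values measure the spread between these libraries. RNA was amplified by a low-input SMART-Seq method before sequencing.

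Depth was 12539599 reads in KO 3, 18308876 in KO 2 and 21748781 to 22779536 in the WT libraries, so that depth and genotype differed in the same direction. Syncrip, as a check of the labels, was read in each library before any other gene. Its normalized level in WT 1 was 1944, in WT 2 1440 and in WT 3 1794, as opposed to 294 in KO 2 and 343 in KO 3. limma put the difference at -2.43 on the log2 scale (SE 0.22, adjusted p = 0.0352) and called no other gene. HSC markers were all present (Kit, Ly6a, Slamf1, Procr, Mecom, Hlf and Meis1, summed level 11259 to 17328 in WT, 13028 in KO 2 and 20335 in KO 3). Other cell types were not absent. Neutrophil markers, some of which early progenitors also express, summed to 1053420 to 1346320 in WT, 969919 in KO 2 and 479131 in KO 3, and Cd48, whose protein the gate excludes, stood at 191 to 768 in the 5 libraries. Adipocyte markers summed to 21046 in KO 2 and to at most 195 elsewhere, with Ucp1 and Cidea listed at 0 in all the other libraries. The KO libraries thus differed from each other as well as from WT. Megakaryocyte markers summed to 4485 to 7650 in WT, 8087 in KO 2 and 18972 in KO 3. Erythroid markers (8871 to 14458) and lymphocyte markers (472 to 589, with Pax5 at 0 in 3 libraries) varied less, and stroma markers were highest in WT 2 (1708, against 112 to 207 elsewhere).

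Each of these proteins acts after transcription. MSI2 (Musashi 2) and IGF2BP2 bind mRNAs of growth and self-renewal programs and mostly favour their translation or stability. ELAVL1 (HuR) stabilizes mRNAs with AU-rich elements, while ZFP36L1 and ZFP36L2, relatives of tristetraprolin, bind the same kind of element and recruit the CCR4-NOT deadenylase, which shortens the poly(A) tail. PUM2 (Pumilio 2) binds the Pumilio element and represses through the same deadenylase. YTHDF2 reads N6-methyladenosine (m6A) and sends marked mRNAs to decay. FMR1 (FMRP) and FXR1 are members of the fragile X family, which bind ribosomes and mRNA granules and restrain or adjust translation.

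The 3′ UTRs of the members themselves carried elements of these kinds, and single sites are shown because the proteins of this group are known to read such elements. Sites were read from GENCODE M21 transcripts on GRCm38, on the mRNA strand only, with the searched letters in capitals. The AU-rich nonamer UUAUUUAUU was found in 5 of the 9 members and the Pumilio element UGUANAUA in 4. Among 12654 tested genes with an annotated 3′ UTR, the shares were 7.65% and 25.4%, and among the 6745 with at least 1000 bases, which all 9 members have, they were 11.85% and 38.3%.
Fmr1, chrX:68717206-68717230, plus strand: auuucuagUUAUUUAUUcugggaau
Fmr1, chrX:68717352-68717375, plus strand: auauucucUGUACAUAuuagcgac
Fxr1, chr3:34069680-34069704, plus strand: uguuugguUUAUUUAUUaaagugua
Zfp36l1, chr12:80108169-80108193, minus strand: cuguuggaUUAUUUAUUuuagaaau
Zfp36l2, chr17:84184916-84184940, minus strand: uauuuaacUUAUUUAUUaucuugug
Elavl1, chr8:4285790-4285814, minus strand: caugaaaaUUAUUUAUUuauuuauu
Pum2, chr12:8750157-8750180, plus strand: uauagagaUGUAUAUAgaauuaua
Msi2, chr11:88344450-88344473, minus strand: uuuaaacgUGUAUAUAauccauga
Igf2bp2, chr16:22060387-22060410, minus strand: uacauguaUGUACAUAucagaagg
Fmr1 was the only member with both elements. Elavl1 held 8 copies of the nonamer, most of them overlapping, that start at bases 3794 to 3840 of its 4218-base 3′ UTR, and the first is printed, while Zfp36l1, Zfp36l2, Fxr1 and Fmr1 held 1 each. The Pumilio element occurred 3 times in Msi2, 2 times each in Pum2 and Fmr1 and 1 time in Igf2bp2, and Ythdf2 held neither motif. The letters of a match say nothing about whether a protein was bound in these cells.

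Levels of the members in WT HSCs were first compared per kilobase of annotated exon, since longer genes collect more reads. The 9 genes spanned a wide range on this scale. Zfp36l2 stood highest with 2633 ± 565 normalized reads per kilobase (SD, n = 3), above 98.0% of the tested genes, followed by Ythdf2 at 667 ± 33.7 and Elavl1 at 591 ± 34.3. A middle group held Fmr1 at 171 ± 37.0, Fxr1 at 120.3 ± 32.4, Zfp36l1 at 108 ± 23.7 and Pum2 at 79.5 ± 12.5. Msi2 stood at 43.8 ± 21.03 and Igf2bp2 was lowest at 10.8 ± 5.06, above 13.5% of the tested genes. The WT libraries of neighbours did not overlap at 4 steps of this order, namely Zfp36l2 over Ythdf2, Ythdf2 over Elavl1, Elavl1 over Fmr1 and Msi2 over Igf2bp2, whereas the steps from Fmr1 down to Msi2 overlapped. With the longest transcript in place of all exons, Elavl1 (1066 ± 61.96) came above Ythdf2 (739 ± 37.3), so the order of that pair rests on the length used. The overlap of Fxr1 with Zfp36l1 rests on it too. With the longest transcript the lowest WT library of Fxr1 (185) stood above the highest of Zfp36l1 (127).

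**Figure D1:**
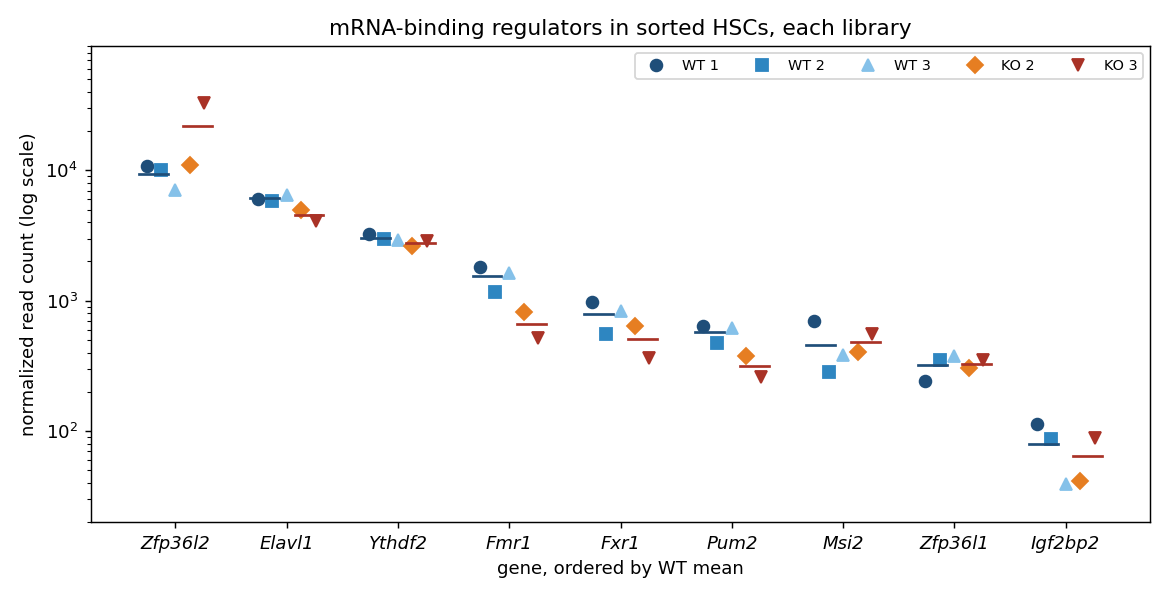
Normalized read count (log scale, not divided by length) of each mRNA-binding regulator in the 3 WT and 2 KO libraries, ordered by the WT mean. Points are libraries and short lines are group means. Zfp36l2 reached 33062 in KO 3 alone, while Fmr1 and Pum2 were lower in both KO libraries than in every WT library.

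The main comparison asked whether these genes differ between KO and WT HSCs. Across all genes, limma called 1 of 13661 (0.00732%), which was Syncrip, and it called 0 of the 9 members (4 had an unadjusted p under 0.05, as did 27.8% of all genes tested). On whole reads, edgeR (quasi-likelihood) called 0 of them and DESeq2 called 3, where DESeq2 called 9.54% of its 11837 genes higher and 9.81% lower. Fmr1, Pum2, Elavl1 and Ythdf2 lay lower in both KO libraries than in all WT libraries, as did 23.2% of the tested genes. Zfp36l2 lay higher in both, as did 23.9%. The other 4 members overlapped between the groups. Depth, the summed neutrophil markers and the sum of Cd48, Flt3 and Il7r (1379 to 1521 in WT, 899 in KO 2 and 811 in KO 3) were also lower in both KO libraries than in all WT libraries, and their part in the values of the members was not tested. Among Cd48, Flt3 and Il7r, only Cd48 was lower one by one. Flt3 in KO 3 (604) exceeded WT 3 (562), and Il7r in KO 2 (15.4) and KO 3 (15.2) exceeded WT 2 (0.87). Of the 9 neutrophil markers, only the late granule genes Ltf, Ngp and Camp were lower one by one, while the primary granule genes Elane (107246) and Prtn3 (36288) exceeded every WT library in KO 2. The median log2 fold change of the 9 was -0.28, against 0.020 over all genes tested, but it was -0.097 without KO 2 and turned to 0.084 (all genes -0.035) after correction for transcript length and GC content, so it gave the group no stable direction.

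Fmr1 (chromosome X, 68678541 to 68717963, plus strand) encodes FMRP, the translational regulator lost in fragile X syndrome. Its normalized read count was 1799, 1162 and 1643 in WT 1, WT 2 and WT 3 and 820.3 and 513 in KO 2 and KO 3. Both KO libraries were below the lowest WT library, and the KO mean was 43.5% of the WT mean. The log2 fold change of -1.22 (SE 0.28, 95% interval -1.85 to -0.58) was the largest in size among the 9 in the main limma fit. It missed the threshold by limma (adjusted p = 0.0815), while DESeq2 called it (adjusted p = 0.0028). With DESeq2, Zfp36l2 was larger in size (1.25, against -1.20 for Fmr1). After correction for transcript length and GC content Fmr1 stood at -0.47, and Zfp36l2 (0.68) and Msi2 (0.67) were larger in size. Fxr1 (chromosome 3, 34019943 to 34070322, plus strand), its autosomal relative, had 977, 558 and 831 in WT 1, WT 2 and WT 3 and 646 and 366 in KO 2 and KO 3. KO 2 lay inside the WT range and KO 3 below it. For Fxr1 the log2 fold change came to -0.66 (SE 0.33, interval -1.41 to 0.094), with a limma adjusted p of 0.226. It was -0.25 without KO 3, -1.07 without KO 2 and 0.084 after the same correction. Of its exon bases 2.72% are shared with Dnajc19 on the other strand, and the use of strand in counting was not given in the sources used here.

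The balance within the fragile X pair was read as a log2 ratio of Fxr1 to Fmr1 in each library. Apart from the 1 added to each value before the log, this ratio does not depend on a library's size factor. It was -0.88, -1.06 and -0.98 in WT 1, WT 2 and WT 3 and -0.35 and -0.49 in KO 2 and KO 3. Both KO libraries lay above all WT libraries, so that Fxr1 was closer to Fmr1 in KO, by 0.56 on the log2 scale (exact two-sided permutation p = 0.10, adjusted p = 0.30 over 3 ratios). With 3 against 2 libraries no p under 0.10 can be reached. The gap between the group means was wider than the SD within WT (0.088) or KO (0.10).

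Pum2 (chromosome 12, 8674134 to 8752581, plus strand) encodes a Pumilio repressor. It had 638, 473 and 620.4 normalized reads in WT 1, WT 2 and WT 3 and 374 and 261 in KO 2 and KO 3. Both KO libraries were below every WT library, at 64.8% and 45.3% of the WT mean. This amounted to a log2 fold change of -0.87 (SE 0.27, interval -1.50 to -0.24, limma adjusted p = 0.102), and DESeq2 called it (adjusted p = 0.0329).

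Elavl1 (chromosome 8, 4285382 to 4325413, minus strand), which encodes HuR, varied little among WT libraries. Its normalized read count was 6017, 5829.6 and 6518 in WT 1, WT 2 and WT 3 and 4936 and 4079 in KO 2 and KO 3. Both KO libraries were lower than all WT libraries, and the KO mean was 73.6% of the WT mean. On the log2 scale the difference was -0.45 (SE 0.17, interval -0.84 to -0.058, limma adjusted p = 0.139). The neuronal relatives Elavl2, Elavl3 and Elavl4 were at 0 in all libraries but KO 3, where Elavl4 was highest at 7.59, and none was tested.

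Ythdf2 (chromosome 4, 132184912 to 132212303, minus strand), the m6A reader that promotes decay, was among the steadiest of the 9. It had 3228, 2979 and 2945 in WT 1, WT 2 and WT 3 and 2650.0 and 2849 in KO 2 and KO 3. The KO libraries were lower, by a small margin, than all WT libraries. limma estimated it at -0.15 on the log2 scale (SE 0.16, interval -0.52 to 0.22, adjusted p = 0.570). Of the other cytoplasmic readers, Ythdf1 was at 0.040 (SE 0.19, limma adjusted p = 0.907). Ythdf3 had 1726, 1368 and 1892 in WT and 829 and 866 in KO, which is -0.96 on the log2 scale (SE 0.21, limma adjusted p = 0.0815, DESeq2 adjusted p = 0.0012). The KO libraries of Ythdf3 were both well under the lowest WT library, but its transcript has 38.4% GC, and with each library corrected for length and GC content the value was -0.17 (limma adjusted p = 0.721).

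Zfp36l2 (chromosome 17, 84183931 to 84187947, minus strand), the most abundant member, was the one with the largest positive fold change. Its normalized read count was 10737, 10127 and 7017 in WT 1, WT 2 and WT 3, 11001 in KO 2 and 33062 in KO 3. KO 2 exceeded the highest WT library only slightly, at 118% of the WT mean, whereas KO 3 stood at 356%. In limma its log2 fold change reached 1.06 (SE 0.41, interval 0.12 to 2.00, adjusted p = 0.144), and DESeq2 called it (adjusted p = 0.0182). Without KO 3 it was 0.27 (limma adjusted p = 0.665), so the size of this value rests on 1 library. KO 3 was also the library with the highest summed HSC and megakaryocyte markers and the lowest summed neutrophil markers, as given above, and their part in the Zfp36l2 value was not tested. Not every gene followed its sum, since Kit and Ly6a were highest in WT libraries and Elane and Prtn3 were not lowest in KO 3. In bulk libraries, more cells of a type and more RNA per cell cannot be told apart.

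Zfp36l1 (chromosome 12, 80107754 to 80113013, minus strand), its close relative, had 244, 348 and 379.6 in WT 1, WT 2 and WT 3 and 307 and 352 in KO 2 and KO 3. The KO libraries lay within the WT range. limma gave a difference of 0.048 on the log2 scale (SE 0.29, interval -0.62 to 0.72, adjusted p = 0.927). Of the exon bases of Zfp36l1, 55.9% are shared with Gm26669, a long noncoding RNA on the other strand, so its reads could include that transcript. Zfp36, which encodes tristetraprolin, the founder of the family and an immediate early gene, had 2925, 5105 and 4506 in WT 1, WT 2 and WT 3 and 2395 and 1961 in KO 2 and KO 3. Both KO libraries were below all WT libraries, and the difference was -0.91 on the log2 scale (SE 0.25, limma adjusted p = 0.0887, DESeq2 adjusted p = 0.0102). With 54.1% GC, Zfp36 stood at -1.23 once each library was corrected in the same way (limma adjusted p = 0.185). The log2 ratio of Zfp36l1 to Zfp36l2 was -5.45, -4.86 and -4.20 in WT and -5.16 and -6.55 in KO, a difference of -1.01 with overlapping groups (exact two-sided permutation p = 0.30, adjusted p = 0.40). The size of this difference depended on KO 3, as it was -0.32 without KO 3 and -1.71 without KO 2.

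Msi2 (chromosome 11, 88339382 to 88718513, minus strand), which encodes the Musashi protein of HSCs and leukemic stem cells, had 702, 284 and 380.5 in WT 1, WT 2 and WT 3 and 403 and 560.4 in KO 2 and KO 3. The WT libraries alone spanned 2.47-fold and enclosed both KO libraries. On the log2 scale KO exceeded WT by 0.17 (SE 0.39, interval -0.72 to 1.05, limma adjusted p = 0.799), an interval that still holds differences of 2-fold upward. Msi1 was at or under the floor of 3 reads in every library and was not tested. Among the genes whose centred log2 values were closest to those of Msi2 over the 5 libraries were Mdfic (root-mean-square distance 0.097) and Ube2cbp (0.13), from 10560 genes with a median distance of 0.56. For Fmr1 the closest were Dram2 (0.042), Chordc1 (0.046) and Ppp1cb (0.049), against a median of 0.70.

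Igf2bp2 (chromosome 16, 22059009 to 22163299, minus strand), a reader of m6A and of growth mRNAs, was the lowest member, with 40 to 136 reads in a library. Its normalized read count was 113, 87.7 and 39.4 in WT 1, WT 2 and WT 3 and 41.1 and 88.1 in KO 2 and KO 3. The groups overlapped fully, and the WT libraries spanned 2.87-fold. The fitted difference was -0.28 on the log2 scale (SE 0.60, interval -1.64 to 1.09, limma adjusted p = 0.782), so that a difference of 2-fold either way was not detectable at this depth and spread. Of its oncofetal relatives, Igf2bp1 had at most 3.08 and was not tested, and Igf2bp3 had 14.2, 27.8 and 4.28 in WT and 12.3 and 24.3 in KO (0.48 on the log2 scale, SE 0.96, limma adjusted p = 0.767). The log2 ratio of Msi2 to Igf2bp2 was 2.62, 1.68 and 3.24 in WT and 3.26 and 2.66 in KO, a difference of 0.44 (exact two-sided permutation p = 0.40, adjusted p = 0.40) that ran from 0.029 without WT 2 to 0.81 without WT 3.

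**Figure D2:**
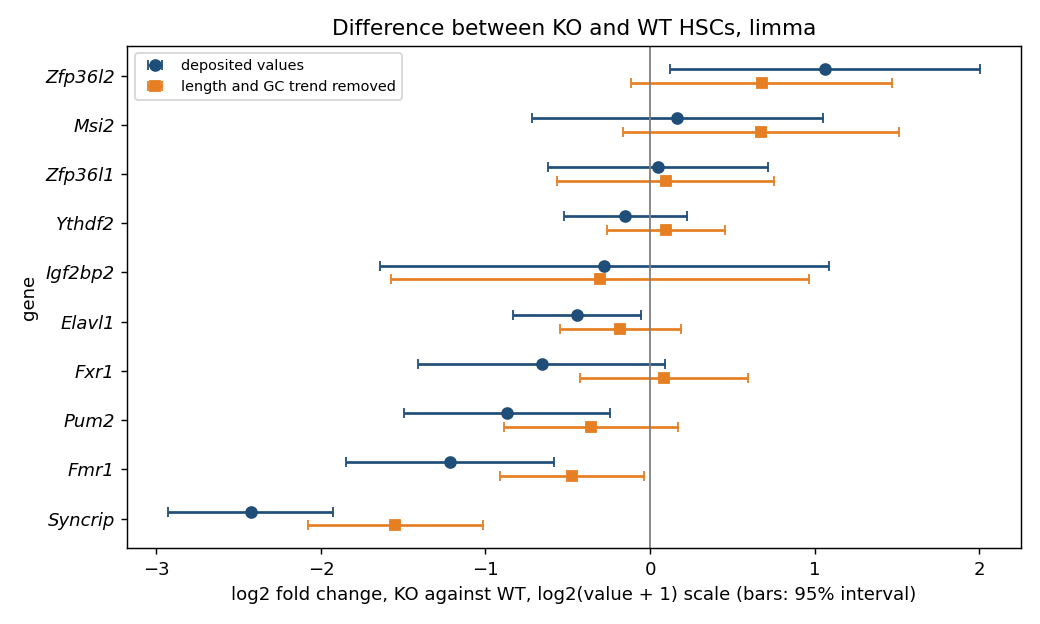
Log2 fold change of KO against WT for Syncrip and the 9 regulators, with the 95% interval from limma, for the deposited values (circles) and after correction of each library for transcript length and base composition (squares). Fmr1 moved from -1.22 to -0.47 and Fxr1 from -0.66 to 0.084.

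Fold changes varied with the base composition of transcripts, and the members were placed on that trend. When the tested genes were cut into 10 bins by GC content of the longest transcript, bin medians of the log2 fold change ran from -0.76 (lowest GC) to 0.73 (highest GC). Fmr1 (39.2% GC) and Fxr1 (39.4%) lay in the lowest bin, Pum2 (42.2%) in the next (median -0.53) and Zfp36l2 (54.8%) in the eighth (median 0.32). Within its own bin, Fmr1 was above 23.3% of genes, Pum2 above 24.1%, Elavl1 above 40.6% and Fxr1 above 57.6%. Zfp36l2 was above 89.9% of its bin and Msi2 (42.3% GC), despite a fold change near 0, above 87.9%.

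After this trend, together with that on length, was taken out of each library, the members drew closer to 0 with the exception of Msi2, Igf2bp2 and Zfp36l1. Fmr1 was then at -0.47 (interval -0.91 to -0.036, limma adjusted p = 0.281), Pum2 at -0.36 (adjusted p = 0.454) and Elavl1 at -0.18 (adjusted p = 0.589). Zfp36l2 was at 0.68 and Msi2 at 0.67, with limma adjusted p of 0.363 and 0.385. Fxr1 (0.084) and Ythdf2 (0.097) changed sign, and none of the 9 was called. Syncrip itself moved from -2.43 to -1.55 (SE 0.23, limma adjusted p = 0.156), so the correction also shrank the value of the deleted gene. The GC trend and the genotype cannot be told apart with these libraries.

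**Figure D3:**
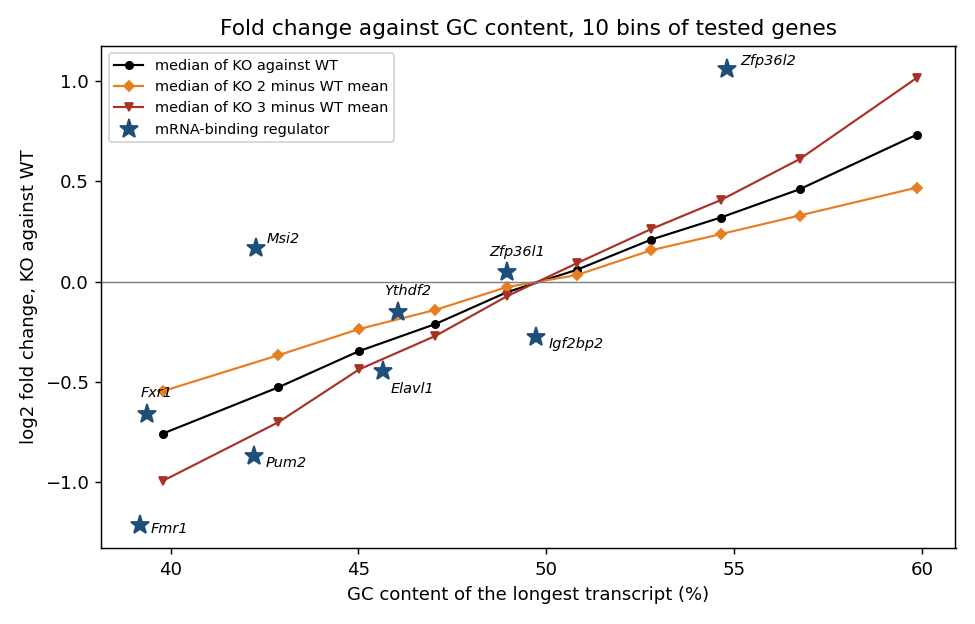
Log2 fold change against the GC content of the longest transcript, for the 9 regulators (stars, labelled) and as medians of 10 bins of all tested genes (lines, for both KO libraries together and each alone). The medians rose with GC content in both KO libraries, and more steeply in KO 3.

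The machinery these proteins recruit was read next, from lists of genes with known roles in it. Together the lists held 81 tested genes, of which limma called 0. DESeq2 called 18 of the 79 to which it gave an adjusted p (5 higher and 13 lower), beside 19.3% of all its genes. Deadenylases had the lowest median log2 fold change, -0.72 over 13 genes, and 7 of the 13 were lower in both KO libraries than in all WT libraries (1 was higher), beside 23.2% of all genes. Cnot6l, a catalytic subunit of CCR4-NOT, was lowest of them, with 731, 524 and 517 in WT and 311 and 232 in KO (-1.11 on the log2 scale, SE 0.28, limma adjusted p = 0.0818, DESeq2 adjusted p = 0.0062). Corrected for length and GC content, Cnot6l was at -0.28 (limma adjusted p = 0.555). Cnot11, an accessory subunit, was highest at 0.39 (SE 0.25, limma adjusted p = 0.323), but against the WT mean it was 0.018 in KO 2 and 0.76 in KO 3. The size of the deadenylase median depended on KO 3 and on the correction, as it was -0.35 without KO 3, -0.82 without KO 2 and -0.19 after the length and GC correction.

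The other lists lay closer to the median of all genes. In decapping and 5′ decay, Xrn1, the 5′ exonuclease, was lowest at -0.91 (SE 0.26, limma adjusted p = 0.0899, DESeq2 adjusted p = 0.0152, and -0.39 after the correction). Dcp1b, a decapping cofactor, was highest at 0.49 (SE 0.32, limma adjusted p = 0.340), but against the WT mean it was 0.024 in KO 2 and 0.95 in KO 3. The median of the 9 genes of this list was -0.25 (-0.12 without KO 3, and -0.18 after the correction). Among 12 m6A writers, erasers and nuclear readers the median was -0.17, which turned to 0.23 after the length and GC correction, and values ran from Cbll1 of the writer complex (-0.67, SE 0.27, limma adjusted p = 0.158, and 0.017 after the correction) to Rbm15b, an adaptor of it (0.77, SE 0.25, limma adjusted p = 0.104, DESeq2 adjusted p = 0.0311, and 0.25 after the correction). Each of these lists held genes on both sides of 0. The 7 microRNA effectors had a median of -0.095 (0.035 after the correction, and -0.0055 without WT 3 to -0.19 without KO 3), with the Argonaute gene Ago3 lowest (-0.51, SE 0.35) and Tnrc6a, which encodes an Argonaute partner, highest (0.44, SE 0.24), at limma adjusted p of 0.362 and 0.265, and Ago3 was at -0.00050 after the correction. The 9 FMRP and granule partners had a median of -0.11 (-0.0025 without WT 1, -0.22 without WT 2, -0.24 without KO 3 and -0.014 after the correction), with the stress granule genes G3bp2 lowest (-0.67, SE 0.17, limma adjusted p = 0.0818, DESeq2 adjusted p = 0.0048, and -0.20 after the correction) and G3bp1 highest (0.27, SE 0.17, limma adjusted p = 0.334). The 5 tested paralogs listed for the members had a median of 0.040 (-0.18 without WT 3 to 0.23 without KO 2, -0.17 after the correction and -0.43 over genes with a mean of at least 100), from Ythdf3 to Igf2bp3, and Fxr2 was at 0.29 (SE 0.21, limma adjusted p = 0.386, and -0.35 after the correction).

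Transcripts known to be bound by members of the group were examined as the other end of the pathway. Of 26 such genes, 10 were higher in both KO libraries than in all WT libraries and 4 were lower, beside 23.9% and 23.2% of all genes, and their median log2 fold change was 0.15 (0.36 without WT 1, 0.29 without WT 2, 0.43 without KO 2 and 0.26 after the length and GC correction). Ccne2, a cyclin of S phase entry, was lowest, with 1310, 854 and 1481 in WT and 450 and 204 in KO (-1.96 on the log2 scale, SE 0.37, limma adjusted p = 0.0815, DESeq2 adjusted p = 0.00015). Its transcript has 36.3% GC, and the corrected value was -0.996. Cdkn1a, which encodes the cell cycle inhibitor p21, was highest, with 67.4, 155 and 68.6 in WT and 388 and 158 in KO (1.46 on the log2 scale, SE 0.53, limma adjusted p = 0.128, DESeq2 adjusted p = 0.0499). KO 3 barely exceeded WT 2 for Cdkn1a, while KO 2 stood apart.

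**Figure D4:**
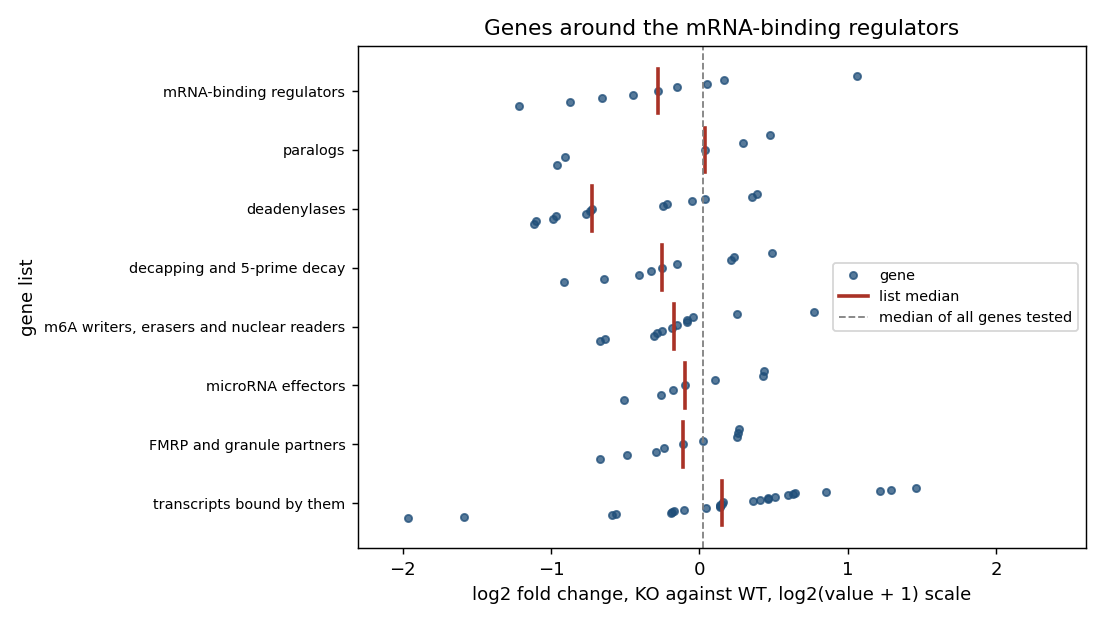
Log2 fold change of KO against WT for each tested gene of the 9 regulators, their paralogs and 6 lists around them. Points are genes, red lines are list medians and the dashed line is the median of all genes tested (0.020). Deadenylases had the lowest median (-0.72, and -0.35 without KO 3).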

How the data were processed

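The authors deposited a table of 24046 genes by 5 libraries as normalized signal, made by dividing reads per gene by each library's size factor. The submitters' processing notes name STAR, featureCounts, DESeq2 and build mm10, and the annotation and the use of strand were not given in the sources used here. A deposited table of the authors' own comparison (log2 fold changes and p-values) was not used. All values were whole multiples of a step per library (100% within a tolerance of 0.01), which gave back the reads. Every library differed from every other beyond counting noise (chi-square over degrees of freedom, 34.1 or more).

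Genes reaching 10 in 2 or more libraries entered limma (version 3.58.1, R 4.3.3, mean-variance trend) on log2(value + 1), with no covariate, and a Benjamini-Hochberg adjusted p under 0.05 was required for a call. Fold changes are on this log2 scale, which understates those of low genes. edgeR (version 4.0.16) and DESeq2 (version 1.42.0) ran on the recovered reads, and all were tested on simulated data. Lengths, coordinates and GC content came from GENCODE M21 by symbol (13519 of 13661 genes), and Cnot9 and Virma by older symbols. For 3′ UTRs the longest basic coding transcript was used. Intervals and the floor of 3 reads cover counting error or the spread between libraries only. Named genes were the 9 members, Syncrip, all tested paralogs, the highest and lowest fold change and any called gene of each list, and the 3 genes nearest in pattern to Msi2 and to the member of largest fold change. The members and lists were chosen with earlier results of these data known. Some genes that these rules and lists would name are not reported here, and list and marker sums leave them out.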

Additional observations from a re-analysis of the deposited data

How the results depend on the processing

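No member was called by limma, and this count of 0 held under 15 of the 17 alternatives. It was 3 with DESeq2 and, over the fits that left out 1 library each, 0 to 3, the 3 being Fmr1, Pum2 and Zfp36l2 both with DESeq2 and without KO 2, where the spread of the lone KO library is assumed to equal that of WT. Over all genes the count of 1 was 2 with a pseudocount of 10, 2 with edgeR, 2290 with DESeq2, 6 with the replicate block, 0 with no filter, array weights, limma-voom or the length and GC correction, and 0 to 3024 on leaving out a library (3024 without KO 2, 4 without KO 3). Genes of the lists called were 0, against 18 with DESeq2, 1 with the replicate block and 0 to 22 on leaving out a library. The cause was not tested. Log2 fold changes of 5 members changed sign in places. Leaving out a library moved Msi2 between -0.12 (without WT 2) and 0.53, with -0.071 without KO 3. It moved Igf2bp2 between -0.82 and 0.26 (without KO 2), with 0.033 without WT 1 and with the block, and Zfp36l1 between -0.14 (without WT 1, and with the block) and 0.18, with -0.050 without KO 3. Array weights put Zfp36l1 at -0.032, and removal of the length and GC trend put Ythdf2 at 0.097 and Fxr1 at 0.084. Fmr1 stayed below 0 under all 17 alternatives, from -1.55 to -0.47 (adjusted p from 0.0028 to 0.287), Pum2 from -1.13 to -0.36, Elavl1 from -0.58 to -0.18, and Zfp36l2 above 0 from 0.27 to 1.86. No ratio changed sign, though Zfp36l1 to Zfp36l2 stood at -0.32 without KO 3 and Msi2 to Igf2bp2 at 0.029 without WT 2.

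Whether the replicate numbers pair the libraries could not be decided. Deviations of same-numbered libraries from their group means correlated at -0.06 and -0.18 across genes. With only KO 2 and KO 3 in the KO group, however, the deviations of these libraries mirror each other, so the 2 values are not independent. The block left the count of members called at 0. WT 1 has no KO partner, so the block rests on 2 pairs. Igf2bp2 had the fewest reads of the members, with 40 in KO 2, and the part of depth in its wide interval was not tested.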
